A study of Mus musculus with 12 samples.

Results

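Transcripts of 31 genes of the lysosome were followed in mouse spleen, out of 32121 genes in the count table. They were taken by symbol from a list of lysosomal enzymes, their cofactors, lysosomal membrane proteins and the transcription factor Tfeb. No measured value entered that rule, but the list was chosen with earlier results of these data known. All 31 were found and all 31 passed the filter on low counts. RNA was sequenced from 12 pieces of spleen of C57BL/6 mice, 2 pieces from each of 6 animals. The 3 SB animals carried VEC-Cre, SB Transposase and onc2. The 3 controls were labelled WT, with no Cre, transposase or transposon named. Cre is driven here by the promoter of VE-cadherin, a gene of endothelial cells, which also marks blood cells descended from embryonic endothelium, and Sleeping Beauty transposase moves the onc2 transposon to new places in the genome, so that each SB animal can carry its own insertions. The series asks whether 2 pieces of a spleen look alike. No agent and no age is labelled, and an effect of Cre, of the transposase or of the transposon alone cannot be told apart with these groups.

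Lysosomes are acidic compartments in which proteases, glycosidases and lipid hydrolases break down material taken up from outside the cell or delivered by autophagy. Macrophages of the spleen, which clear old red cells, are rich in them, and granules of myeloid cells, platelets and mast cells are related organelles. Many lysosomal genes carry an E-box of the CLEAR type near the start site, which is bound by TFEB, TFE3 and MITF, factors that enter the nucleus when mTORC1 at the lysosomal surface is inactive.

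The E-box CACGTG, which reads the same on both strands, was searched in promoter windows of RefSeq (GRCm38.p6) that reach from 250 bases before to 50 bases after a start site. Windows were found for 28 members, with none for Ctsb, Ctsh and Asah1. The motif lay in a window of 11 members (39.3%), against 2187 of 27025 genes with a window (8.09%). The 11 were Ctsf, Ctsl, Lgmn, Ctsd, Ctsa, Gaa, Gla, Glb1, Naglu, Lamp1 and Mcoln1. TCACGTG on either strand, which contains the E-box, lay in windows of 9 members (32.1%) and 4.29% of genes. Member windows had a median GC content of 56.3%, and all windows 52.7%. A match is a run of letters and not a measured binding site.

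Below are the 250 bases before the start site of 4 members, 5′ to 3′ on the gene's strand, with E-boxes in capitals, extended by T before or A after where these letters follow. Gla is shown as the enzyme gene called higher in SB spleens, Lamp1 for its 4 E-boxes, Mcoln1 as the member with the most even levels, and Ctss, with no E-box, as the member with the most uneven levels. They lie at chrX:134601006-134601255 (minus strand), chr8:13158911-13159160 (plus), chr8:3500269-3500518 (plus) and chr3:95526536-95526785 (plus).
Gla: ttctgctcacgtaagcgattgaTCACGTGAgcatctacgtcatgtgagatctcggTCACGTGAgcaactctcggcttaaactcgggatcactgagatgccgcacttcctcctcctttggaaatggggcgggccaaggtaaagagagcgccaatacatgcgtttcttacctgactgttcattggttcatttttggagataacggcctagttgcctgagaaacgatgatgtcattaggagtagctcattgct
Lamp1: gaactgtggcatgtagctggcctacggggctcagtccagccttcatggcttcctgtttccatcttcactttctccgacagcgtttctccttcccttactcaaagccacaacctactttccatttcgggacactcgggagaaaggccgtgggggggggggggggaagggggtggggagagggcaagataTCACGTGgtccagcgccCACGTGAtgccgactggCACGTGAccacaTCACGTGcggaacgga
Mcoln1: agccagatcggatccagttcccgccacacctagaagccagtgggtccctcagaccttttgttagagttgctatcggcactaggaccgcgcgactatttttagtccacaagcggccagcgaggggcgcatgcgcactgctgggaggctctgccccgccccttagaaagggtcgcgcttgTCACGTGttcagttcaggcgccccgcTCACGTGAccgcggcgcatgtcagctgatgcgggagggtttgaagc
Ctss: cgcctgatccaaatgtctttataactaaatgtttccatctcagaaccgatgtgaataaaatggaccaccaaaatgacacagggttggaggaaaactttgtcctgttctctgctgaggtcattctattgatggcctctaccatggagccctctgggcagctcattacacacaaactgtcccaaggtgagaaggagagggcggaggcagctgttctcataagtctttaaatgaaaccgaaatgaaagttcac

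The libraries held 14320833 to 22031026 counts and 22268 to 23767 detected genes. Members took 0.767%, 0.807% and 0.852% of the counts of control animals 1, 2 and 3. In the SB animals these shares were 0.452%, 2.28% and 0.613%, so that SB animal 2 stood above and SB animals 1 and 3 stood below the controls. Levels below are CPM, read counts relative to the TMM-scaled library size, with both pieces of a spleen summed. Adjusted p-values are Benjamini-Hochberg values over all genes tested, from edgeR's quasi-likelihood test, and a gene is called under 0.05. Pieces of a spleen are not separate animals, so n is 3 animals per group.

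Per exon length, as RPKM, Psap stood first among the 31 in controls at 923 ± 47.5 (SD, n = 3) and kept the first place in every SB animal. It was followed in controls by Ctss at 419 ± 38.5 RPKM and Ctsz at 237 ± 9.95 RPKM. Gla was last at 2.08 ± 0.231 RPKM. The order changed in the SB spleens: Ctss, at place 2 in controls and in SB animal 2, was at place 14 in SB animal 1 and 6 in SB animal 3. Ctsh moved from place 8 in controls to 28 in SB animal 1 and 25 in SB animal 3. Tfeb moved from place 18 in controls to 29, 31 and 28 in SB animals 1, 2 and 3.

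The spleens of the SB group were unlike each other in nearly all of these genes, while the control spleens were alike. The 3 SB animals were unequal in 30 of 31 members (96.8%), all but Mcoln1, where 70.8% of all genes tested were called unequal. The 3 control animals were unequal in 0 members by edgeR, with 0 at an unadjusted p under 0.05, and in 0.557% of all genes. The error in these tests is how far pieces of the same spleen differ, so the p-values speak of these spleens and not of the genotypes. The highest SB animal exceeded the lowest by a median of 4.59-fold over the members and 1.72-fold over all genes, and the highest control exceeded the lowest by 1.11-fold and 1.14-fold. Members with an E-box had a median spread of 3.21-fold between SB animals (range 1.19 to 16.7, 11 genes), and those with a window but no E-box 4.75-fold (1.91 to 34.02, 17 genes).

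SB animal 2 had the highest level of the SB animals in 28 of 31 members (90.3%), against 36% of all genes. SB animal 1 was lowest in 19 and SB animal 3 in 12. On the log2(CPM + 1) scale the median difference of the members from the control mean was -0.29, 1.52 and -0.06 in SB animals 1, 2 and 3, where the median over all genes was -0.02 in each. Both pieces of SB animal 2 lay above the other 10 libraries in 24 members, where 16.1% of all genes tested did so, and below them in 0, where 11.5% did so. Both pieces of SB animal 1 lay below the other 10 libraries in 10 members (16.5% of all genes) and above them in 1, Cd63 (15.5%). Both pieces of SB animal 3 lay below in 6, namely Ctsz, Ctsa, Hexa, Man2b1, Naglu and Cd63 (12.4% of all genes), and above in 1, Smpd1 (13.6%).

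**Figure D1:**
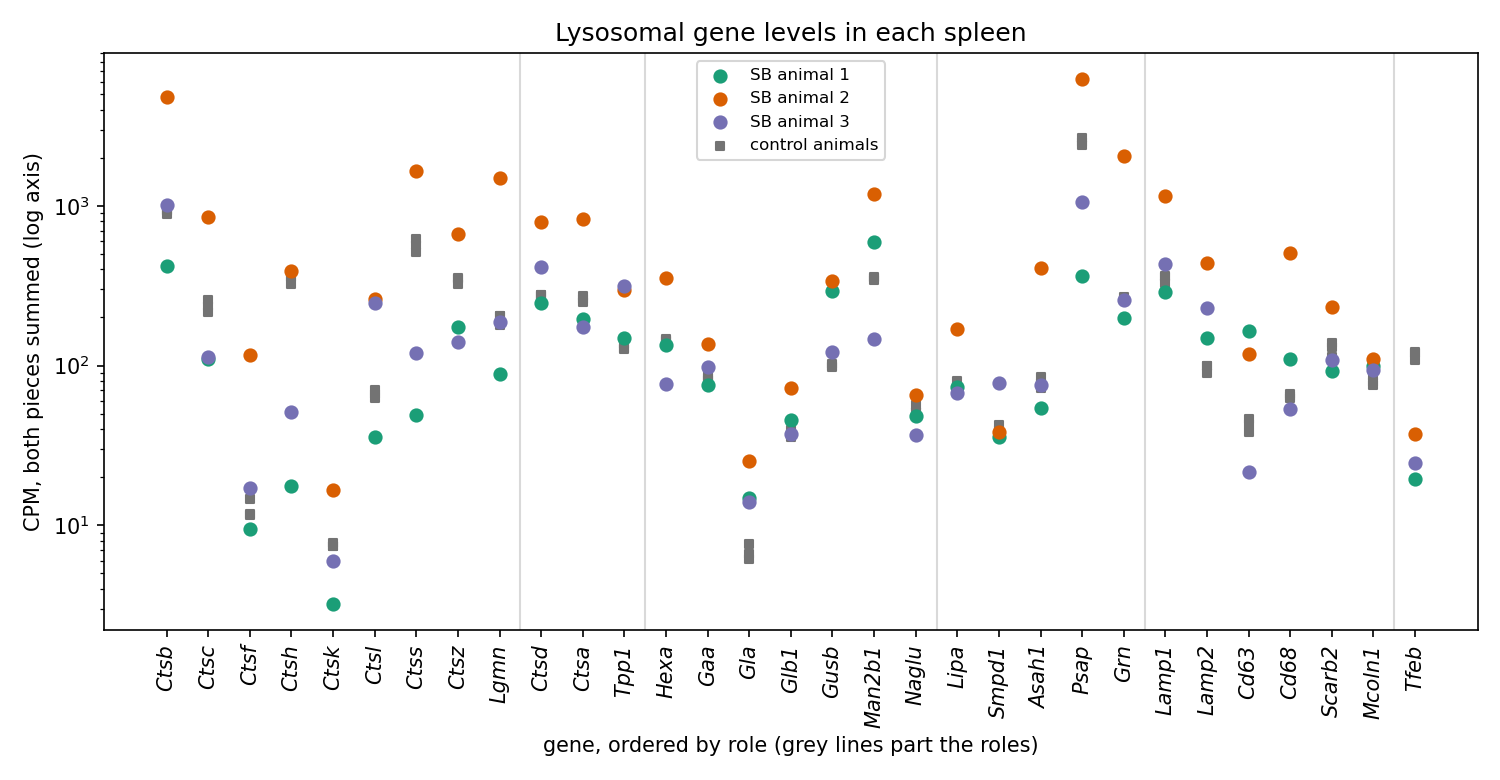
CPM of each of the 31 lysosomal genes on a log axis, 1 point per animal with both pieces summed, ordered by role. Grey squares are the 3 control animals, which lie close together, and coloured circles are the 3 SB animals, of which SB animal 2 is highest in 28 genes.

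With each SB animal set against the mean of the other 2, SB animal 2 was called higher in 29 members (29.1% of all genes tested) and lower in 1, Smpd1 (25%). SB animal 1 was called lower in 24 (27.8%) and higher in 3, Gusb, Man2b1 and Cd63 (26.1%). SB animal 3 was called lower in 22 (23.1%) and higher in 3, Ctsl, Tpp1 and Smpd1 (23.2%). These 3 contrasts use the same 6 libraries and are not independent of each other.

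The cysteine cathepsins and legumain, proteases that cut proteins at acidic pH, were the group with the widest spread. Their median difference from the control mean was -1.09, 1.83 and -0.29 in SB animals 1, 2 and 3, on the log2(CPM + 1) scale. All 9 were highest in SB animal 2 and 8 were lowest in SB animal 1. Between the genotypes edgeR called 0 of the 9, with 0 at an unadjusted p under 0.05. DESeq2 called 0 and gave no adjusted p for Ctsh and Ctss.

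Ctss, cathepsin S, trims the invariant chain of MHC class II in antigen-presenting cells. It measured 48.9, 1664 and 119 CPM in SB animals 1, 2 and 3, and 517, 569 and 621 CPM in the controls. SB animal 2 was thus 2.92-fold above the control mean, while SB animals 1 and 3 were 11.6-fold and 4.77-fold below it, and the 2 groups overlapped. The genotype change was 0.10 (log2, SE 1.20, edgeR adjusted p = 0.96), a mean over values on both sides of the controls. In bulk spleen, fewer cells of a type and less RNA per cell cannot be told apart, here and in all results below.

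Ctsh, cathepsin H, an aminopeptidase, measured 17.7, 389 and 51.1 CPM in the SB animals and 326, 364 and 359 CPM in the controls. Only SB animal 2 reached the control level, and SB animal 1 was 19.7-fold and SB animal 3 6.84-fold below it. The genotype change was -1.20 (SE 1.04, edgeR adjusted p = 0.452). Ctsc, cathepsin C, which activates the serine proteases of granules, measured 110.5, 845 and 112.9 CPM against 237 ± 21.7 CPM (SD, n = 3) in controls. Ctsz, cathepsin Z, measured 173, 665 and 140.1 CPM against 342 ± 14.3 CPM. In these 2 genes SB animals 1 and 3 were close to each other and below every control, and SB animal 2 was above every control.

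Ctsb, cathepsin B, a broadly acting protease, measured 423, 4802 and 1017 CPM in the SB animals and 930, 941 and 883 CPM in the controls. Lgmn, legumain, which cleaves after asparagine and activates other cathepsins, measured 88.9, 1488 and 189 CPM, with controls at 181, 205 and 204 CPM. For both genes SB animal 3 was near the controls, SB animal 1 was less than all of them, and SB animal 2 was 5.23-fold (Ctsb) and 7.57-fold (Lgmn) above the control mean. Ctsf, cathepsin F, measured 9.52, 117 and 17.2 CPM against 12.7 ± 1.71 CPM, which put SB animal 2 9.25-fold above the control mean, the highest such ratio among the 31. Ctsk, cathepsin K, the collagen-degrading protease of osteoclasts, measured 3.24, 16.6 and 5.97 CPM against 7.52 ± 0.209 CPM.

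Ctsl, cathepsin L, was high in SB animal 3 as well as in SB animal 2. It measured 35.6 and 247 CPM in SB animals 1 and 3, 279.6 and 249.2 CPM in pieces 1 and 2 of SB animal 2, and 66.2, 62.8 and 69.9 CPM in the controls. SB animals 2 and 3 were 3.95-fold and 3.73-fold above the control mean, and SB animal 1 was below every control. The genotype change was 1.45 (SE 0.68, edgeR adjusted p = 0.183). Without SB animal 1 it was 1.94 (SE 0.12, edgeR adjusted p = 0.00382), and over all alternatives the adjusted p ran from 0.00382 to 0.372.

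Among the aspartic and serine proteases, Tpp1, tripeptidyl peptidase 1, measured 148, 297 and 315 CPM in the SB animals and 127, 130 and 136 CPM in the controls. All 6 SB libraries lay above all 6 control libraries, and SB animal 1 was nearest to the controls. The genotype change of 0.95 (SE 0.30) missed the threshold at an edgeR adjusted p of 0.0772, and DESeq2 gave an adjusted p of 0.0292, within a range of 0.00724 to 0.231 over the alternatives. Ctsd, the aspartic protease cathepsin D, measured 247, 794 and 414 CPM against 275 ± 3.47 CPM. Ctsa, cathepsin A, which also protects beta-galactosidase and neuraminidase in a complex, measured 195, 831 and 175 CPM against 261 ± 9.98 CPM. Exons of Ctsa overlap those of Neurl2 and Pltp over 17.4% of their length, and libraries without strand cannot part such reads. The same holds for 12.8% of Ctsb (Fdft1), 12.8% of Hexa (Tmem202) and 9.31% of Lamp1 (Grtp1).

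The glycosidases remove sugars from glycoproteins, glycolipids and glycosaminoglycans. All 7 were highest in SB animal 2, and 6 of 7 were lowest in SB animal 3. Their median difference from the control mean was 0.29, 1.28 and -0.01 in SB animals 1, 2 and 3, on the log2(CPM + 1) scale.

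Gla, alpha-galactosidase A, which removes terminal galactose from globotriaosylceramide, was the 1 member called higher in SB (8.59% of all genes tested were called higher). Its identifier is ENSMUSG00000031266, and the gene lies at chrX:134588149-134601125 on the minus strand in GRCm38. Gla measured 14.8, 25.3 and 14.1 CPM in the SB animals and 6.59, 6.14 and 7.61 CPM in the controls. Every SB animal was above every control, and SB animal 2 was above the other 2 SB animals. The genotype change was 1.41 (SE 0.31, edgeR adjusted p = 0.0311). Leaving out control animal 1, 2 or 3 ended the call, with edgeR adjusted p of 0.137, 0.145 and 0.122, and over all alternatives it ran from 0.00026 to 0.145. Gla is X-linked. Xist, transcribed from the inactive X chromosome, measured 2271 and 1002 CPM in SB animals 1 and 2, 1.68 CPM in SB animal 3 and 1.49 to 2.44 CPM in controls, and the Y-linked Ddx3y measured 0.256, 0.182 and 96.1 CPM in the SB animals and 60.7 to 76.0 CPM in controls. Xist was thus high in 2 of 3 SB animals and in 0 of 3 controls, so sex is partly confounded with genotype for every gene here. SB animal 3 was 2.07-fold above the control mean of Gla, and the part of sex in this difference was not tested.

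Gusb, beta-glucuronidase, measured 292, 340 and 122 CPM in the SB animals and 101.6, 100.1 and 98.2 CPM in the controls. All SB libraries lay above all control libraries, with SB animals 1 and 2 high and SB animal 3 just above the controls. The genotype change of 1.33 (SE 0.38) had an edgeR adjusted p of 0.0594, and DESeq2 gave 0.0118, within a range of 0.00684 to 0.199 over the alternatives. Man2b1, lysosomal alpha-mannosidase, measured 596, 1178 and 147 CPM, with controls at 354, 345 and 360 CPM. SB animals 1 and 2 were thus above and SB animal 3 2.41-fold below the controls, and the groups overlapped.

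Hexa, the alpha subunit of beta-hexosaminidase, measured 135, 354 and 76.5 CPM against 145 ± 1.53 CPM. Glb1, beta-galactosidase, measured 46.0, 71.9 and 37.2 CPM against 37.4 ± 2.13 CPM. Gaa, acid alpha-glucosidase, which degrades glycogen, measured 75.4, 137 and 97.8 CPM against 83.5 ± 2.93 CPM. Naglu, which degrades heparan sulfate, had the narrowest spread of the glycosidases, at 48.1, 65.1 and 37.0 CPM against 52.9 ± 2.998 CPM.

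Among the lipid hydrolases and their cofactors, Psap, prosaposin, the precursor of the saposins that present sphingolipids to their enzymes, measured 361, 6203 and 1056 CPM in the SB animals and 2407, 2522 and 2667 CPM in the controls. SB animal 2 was 2.45-fold above the control mean, and SB animals 1 and 3 were 7.01-fold and 2.40-fold below it. The genotype change was 0.0045 (SE 0.95, edgeR adjusted p = 0.998), although no SB animal was within the range of the controls. Grn, progranulin, a partner of prosaposin on the way to the lysosome, measured 198, 2059 and 257 CPM, with controls at 258, 259 and 270 CPM. SB animal 2 was 7.85-fold above the control mean of Grn and SB animal 3 was 0.98-fold of it, so Psap and Grn differed in SB animal 3.

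Asah1, acid ceramidase, measured 54.4, 410 and 75.1 CPM against 78.3 ± 6.40 CPM. Lipa, lysosomal acid lipase, which hydrolyses cholesteryl esters, measured 73.3, 168 and 67.3 CPM against 74.9 ± 5.22 CPM. Smpd1, acid sphingomyelinase, was the only member in which SB animal 2 was called below the other SB animals. It measured 35.6, 38.4 and 78.1 CPM in the SB animals and 37.6, 42.4 and 39.6 CPM in the controls. SB animal 3 was 1.96-fold above the control mean, and SB animals 1 and 2 lay near it. Between the genotypes edgeR called 0 of these 5 genes, with 0 at an unadjusted p under 0.05. DESeq2 called 0 and gave no adjusted p for Grn.

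Among the membrane proteins, Lamp1 and Lamp2 coat the inner face of the lysosomal membrane with sugars. Lamp2, which also takes part in the fusion of autophagosomes with lysosomes, measured 149, 440 and 228 CPM in the SB animals and 90.3, 99.2 and 99.8 CPM in the controls. All 6 SB libraries were above all 6 control libraries. The genotype change of 1.498 (SE 0.40) had an edgeR adjusted p of 0.0507, and DESeq2 gave 0.00595, within a range of 0.00595 to 0.175 over the alternatives. Lamp2, like Gla, is X-linked, and the part of sex in its level was not tested. SB animals 1, 2 and 3 were 1.54-fold, 4.56-fold and 2.36-fold above the control mean. Lamp1 measured 287, 1146 and 433 CPM against 350.3 ± 18.1 CPM, so that SB animal 1 was below the controls and the others above.

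Cd63, a tetraspanin of late endosomes and of the granules of platelets, mast cells and basophils, measured 164, 118 and 21.4 CPM in the SB animals and 38.6, 42.9 and 46.4 CPM in the controls. It was the only member with both pieces of SB animal 1 above the other 10 libraries. SB animal 3 was below every control. Cd68, a glycoprotein of macrophage lysosomes, measured 109.5, 504 and 53.5 CPM, with controls at 62.5, 64.3 and 66.4 CPM. SB animals 1 and 2 were 1.70-fold and 7.83-fold above the control mean of Cd68. SB animal 3 was below the controls with pieces summed, while both its pieces lay within the range of the control libraries. Scarb2, the receptor that carries glucocerebrosidase to lysosomes, measured 92.5, 231 and 107.8 CPM against 127 ± 12.8 CPM.

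Mcoln1, the lysosomal cation channel TRPML1, was the only member in which the SB animals were not called unequal (edgeR adjusted p = 0.488). It measured 99.2, 110.4 and 93.2 CPM in the SB animals and 85.9, 78.6 and 75.9 CPM in the controls. Every SB animal was above every control, while some libraries overlapped, and the genotype change was 0.33 (SE 0.14, edgeR adjusted p = 0.152).

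Tfeb, the factor that drives many lysosomal genes, was the 1 member called lower in SB (9.75% of all genes tested were called lower). Its identifier is ENSMUSG00000023990, and it lies at chr17:47737030-47792419 on the plus strand. Tfeb measured 19.5, 37.1 and 24.7 CPM in the SB animals and 108.6, 120.5 and 121.5 CPM in the controls. Every SB library was below every control library, and SB animal 2 had the highest level of the SB animals. The genotype change was -2.11 (SE 0.27, edgeR adjusted p = 0.00723), and under 15 alternatives it ran from -2.41 to -1.92 with adjusted p from 7.88e-10 to 0.0472. B cell markers were lower in the same spleens, and their part in the level of Tfeb was not tested: the summed level of 7 B cell markers was 53.2 to 111 CPM in SB animals and 6855 to 7736 CPM in controls.

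**Figure D2:**
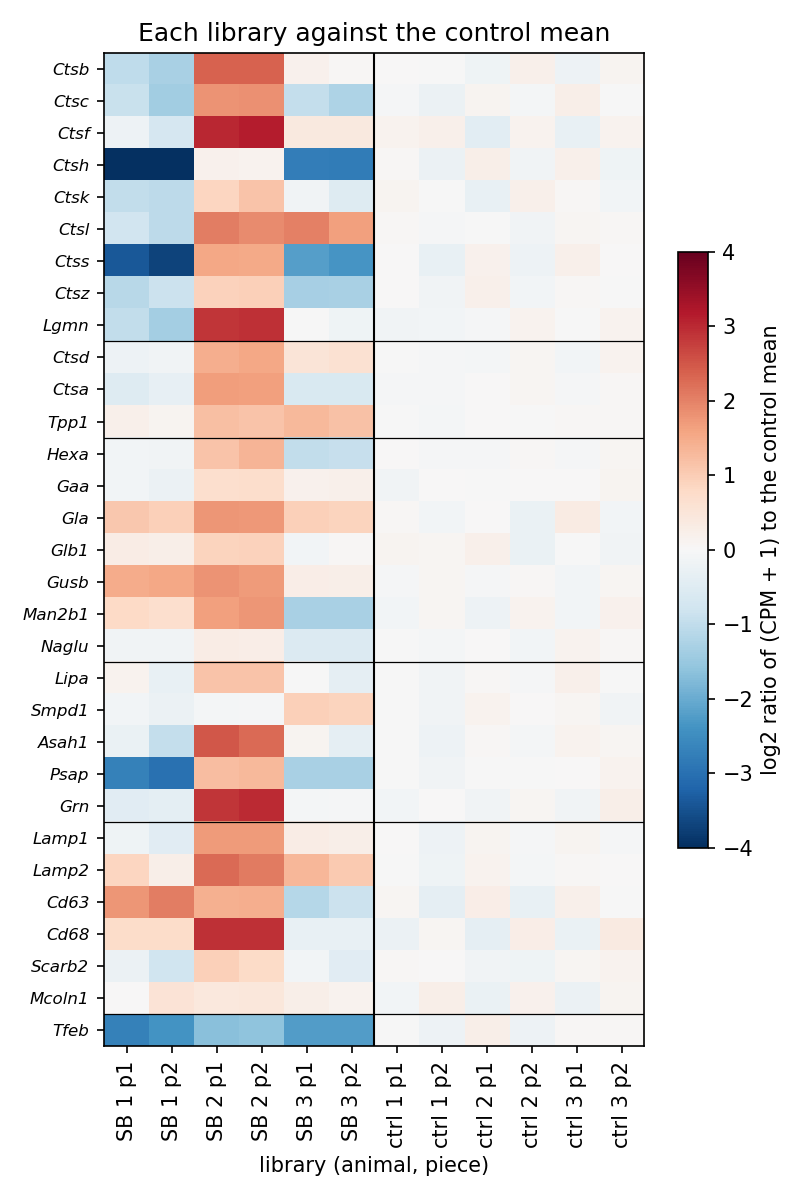
Log2 ratio of (CPM + 1) in each of the 12 libraries to the mean of the control libraries, for the 31 genes in rows ordered by role and the libraries in columns (p1 and p2 are the pieces). Red is above and blue below the control mean: both pieces of SB animal 2 are red in most rows, both pieces of SB animal 1 are blue for Ctsh, Ctss and Psap, and Tfeb is blue in all 6 SB libraries.

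Counted over the 31 members, the genotype test thus called 1 gene higher and 1 lower, 3.23% in each direction and below the share over all genes, and 5 had an unadjusted p under 0.05 (35.6% of all genes tested did). These 5 were Tpp1, Gla, Gusb, Lamp2 and Tfeb. All 6 SB libraries lay above all 6 control libraries in 4 members, Tpp1, Gla, Gusb and Lamp2 (14.2% of all genes), and below them in 1, Tfeb (16.8%). The median genotype change was 0.61 (log2) over members and 0.11 over all genes. The biological coefficient of variation was 49.7% over all genes in this fit.

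With SB animal 2 left out, 2 members were called higher, Gla and Lamp2 (17.2% of all genes tested), and 7 lower, Ctsc, Ctsh, Ctss, Ctsz, Ctsa, Psap and Tfeb (18.5%). This comparison of SB animals 1 and 3 with controls shares its controls with the full comparison. Ctsh was then at -3.35 (SE 0.52, edgeR adjusted p = 0.0106), Ctss at -2.76 (SE 0.44, adjusted p = 0.0112) and Psap at -1.84 (SE 0.49, adjusted p = 0.0421). Ctsz was at -1.13 (SE 0.14, edgeR adjusted p = 0.00588) and Ctsc at -1.09 (SE 0.12, adjusted p = 0.00506). Ctsf, Grn, Lgmn, Asah1 and Ctsb, whose genotype changes with all animals ran from 1.18 to 1.92, were then at 0.08, -0.21, -0.50, -0.28 and -0.35 and were not called. The median over members moved from 0.61 to -0.09, and that over all genes from 0.11 to 0.05.

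Leaving out another SB animal brought up other members. Without SB animal 1, Ctsl, Tpp1, Gla and Lamp2 were called higher (12.1% of all genes tested) and Tfeb lower (12.3%). Tpp1 was then at 1.23 (SE 0.12, edgeR adjusted p = 0.00724) and Lamp2 at 1.79 (SE 0.30, adjusted p = 0.0181). Without SB animal 3, Gla, Gusb and Cd63 were called higher (8.83% of all genes tested) and Tfeb lower (9.71%). Cd63 was then at 1.73 (SE 0.19, edgeR adjusted p = 0.0121), against 1.25 (SE 0.66, adjusted p = 0.232) with all animals, and Gusb at 1.66 (SE 0.13, adjusted p = 0.00684). Gla and Tfeb were the 2 members called with any 2 of the SB animals against the 3 controls.

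**Figure D3:**
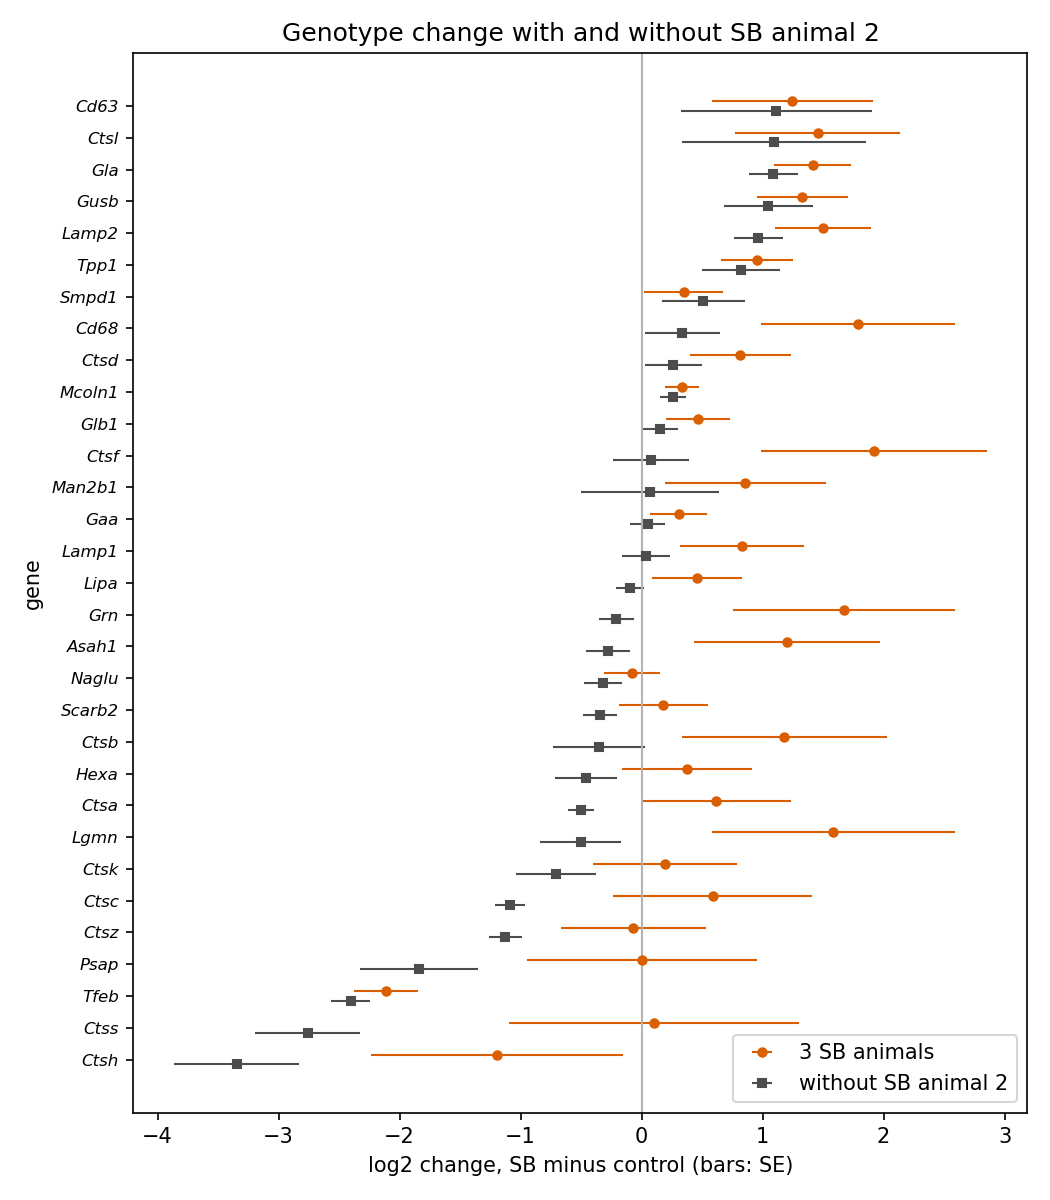
Log2 change between SB and control animals for each of the 31 genes with its standard error, from the fit with 3 SB animals (orange) and without SB animal 2 (dark squares). Psap moves from 0.0045 to -1.84 and Ctss from 0.10 to -2.76, while Gla stays above 1 and Tfeb below -2.

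Cell type markers also differed between these spleens. The summed level of 12 macrophage markers was 15420 CPM in SB animal 2, 1176 in SB animal 1, 1245 in SB animal 3 and 1320 to 1434 in controls. All 12, among them Adgre1, Csf1r and C1qa, were above the control mean in SB animal 2, against 2 in SB animal 1 and 5 in SB animal 3. In SB animal 1 the median marker was at -1.15 from the control mean on the log2(CPM + 1) scale, and most of its sum came from Mrc1, a marker named after its values were seen, at 696 CPM against 63.3 to 81.2 CPM in controls. Adgre1, the F4/80 antigen, measured 7.16, 409 and 22.2 CPM in the SB animals and 45.5 to 49.5 CPM in controls, and C1qa, a complement subunit made by macrophages, 62.3, 2924 and 107.3 CPM and 130.3 to 138.7 CPM. The 6 monocyte markers summed to 192, 1779 and 240 CPM in the SB animals and 181 to 213 CPM in controls, and all 6 were above the control mean in SB animal 2. In SB animal 1 only F13a1 was above it, at 136.6 CPM against 7.43 to 11.3 CPM in controls, and the median marker was at -1.67. The 8 neutrophil markers summed to 71.1, 2190 and 906 CPM in SB animals and 131 to 323 CPM in controls. The 6 dendritic cell markers summed to 49.8, 107 and 28.03 CPM and 142 to 169 CPM in controls. Despite the lower sum, 3 of the 6 were above the control mean in SB animal 2, against 0 in SB animals 1 and 3. T cell markers summed to 22.9, 112 and 12.4 CPM, and 694 to 797 CPM in controls. The promyelocyte markers, of which 4 of 5 tested were called higher (8.59% of all genes tested), summed to 614, 350.2 and 397 CPM in the SB animals. Their sum was 12.1 to 62.3 CPM in controls. Prtn3 alone was 416.5 CPM of the sum in SB animal 1, where Elane, at 8.30 CPM, was within the control range of 2.32 to 11.1 CPM. The megakaryocyte markers, 3 of 6 called higher (8.59% of all genes tested), summed to 3202, 1042 and 4162 CPM and 233 to 574 CPM in controls. The mast cell markers summed to 182, 39.8 and 140.0 CPM and 39.4 to 49.1 CPM in controls. Kit, also named after its values were seen, was alone 169.8 CPM of the sum in SB animal 1 and 139.6 CPM in SB animal 3. Every other mast cell marker was below every control in SB animal 3. The erythroid markers summed to 2373, 34640 and 2490 CPM and 20620 to 43960 CPM in controls. Of these 7 markers, 3, 6 and 4 were above the control mean in SB animals 1, 2 and 3. The stroma markers summed to 163, 536 and 330 CPM and 338 to 374 CPM in controls. Above the control mean were 1, 5 and 2 of these 7 in SB animals 1, 2 and 3. The osteoclast markers summed to 29.0, 288 and 122 CPM and 192 to 205 CPM in controls. Above the control mean were 1, 2 and 1 of the 4 tested in SB animals 1, 2 and 3. Mmp9, also named after its values were seen, was 107.4 CPM of the sum in SB animal 2, against 11.95 to 15.22 CPM in controls. Of the osteoclast markers, Ocstamp was at 0 in SB animal 1 and Dcstamp at 0 in SB animal 3. The part of any of these cells in the lysosomal gene levels was not tested.

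**Figure D4:**
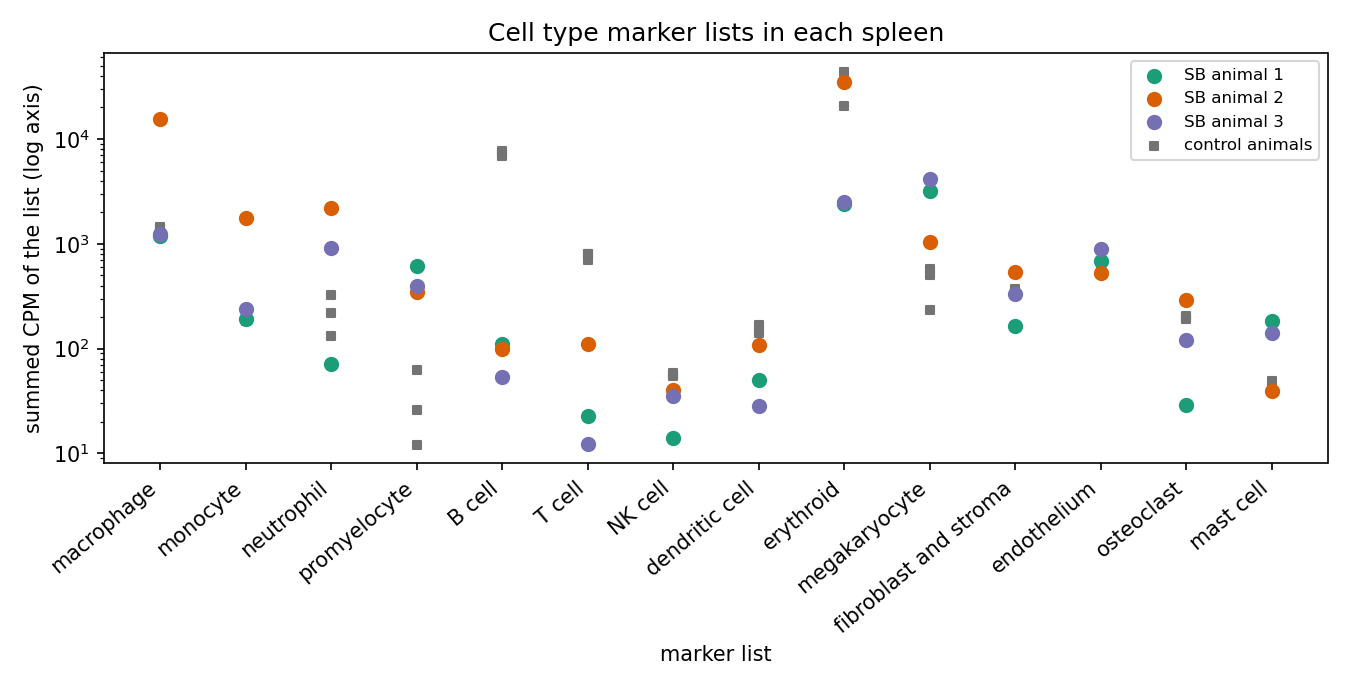
Summed CPM of 14 lists of cell type markers in each animal, on a log axis, with grey squares for the 3 controls and coloured circles for the SB animals. The sums of macrophage, monocyte, neutrophil, stroma and osteoclast markers are highest in SB animal 2. In the stroma and osteoclast lists some markers are not above the control mean there. B and T cell markers are lower in all SB animals than in controls.

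The pieces of a spleen were close in most of these genes. Over all 6 animals, edgeR with the animal as a block called 0 of 31 members between piece 2 and piece 1 (3.05% of all genes tested). At an unadjusted p under 0.05 there were 12 members, and DESeq2 called 4, of 1213 genes it called in all. Within the SB animals 0 members were called (0.00644% of all genes), with 7 at an unadjusted p under 0.05. Within the controls, where sections B and A stand for pieces 2 and 1, 6 members were called (19.4%, against 9.75% of all genes). Piece 2 was higher in Cd68, Mcoln1 and Man2b1 and lower in Ctsh, Cd63 and Ctss.

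Ctsh measured 364, 415 and 403 CPM in piece 1 and 299, 320.3 and 311 CPM in piece 2 of control animals 1, 2 and 3. Every control was lower in piece 2, with a change of -0.34 (log2, SE 0.06, edgeR adjusted p = 0.0124). Cd68 measured 55.7, 51.0 and 53.7 CPM in piece 1 and 68.7, 78.8 and 83.9 CPM in piece 2 of the controls. The change was 0.52 (SE 0.08, edgeR adjusted p = 0.00676), and every control was higher in piece 2. In the SB animals Cd68 was level, at 109.3, 504.2 and 53.1 CPM in piece 1 and 109.5, 503.1 and 52.5 CPM in piece 2. Cd63 fell by 0.40 (SE 0.09, edgeR adjusted p = 0.0231) in the controls, from 45.4, 51.6 and 49.9 CPM to 33.4, 35.2 and 43.1 CPM. The SB animals measured 148, 117 and 19.2 CPM of Cd63 in piece 1 and 182, 119 and 23.2 CPM in piece 2.

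The difference of piece changes between the genotypes was called in 2 members, Cd63 and Cd68 (1.37% of all genes tested). The number called within controls was 0 without control animal 2 or 3, 2 without control animal 1 and 11 without SB animal 1. Within the SB animals, 6 members were called once SB animal 2 was left out. For these counts with an animal left out, and for piece counts at an unadjusted p, no share over all genes was counted. Piece differences were not small beside those between SB spleens in every member. In Cd68, with the widest control change at 0.52 on the log2 scale, the SB animals spanned 9.43-fold. In Mcoln1 the control change was 0.39 on that scale, and the SB animals spanned 1.19-fold. The pieces of SB animal 1 measured 82.4 and 118.8 CPM of Mcoln1.

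**Figure D5:**
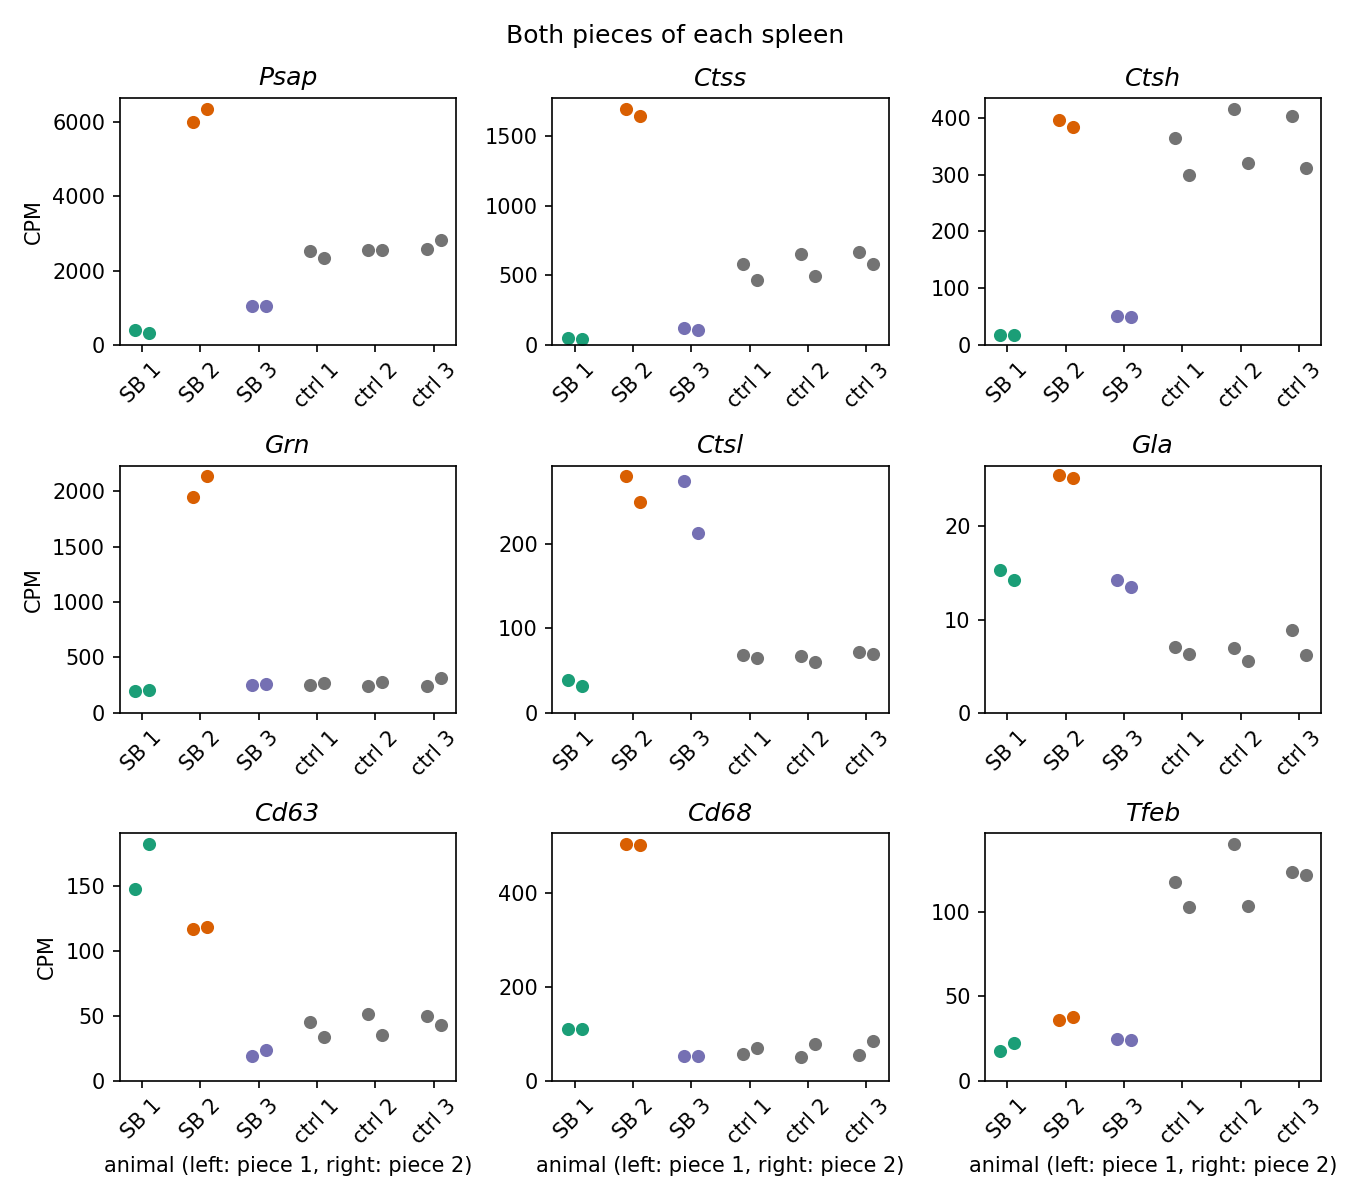
CPM of 9 genes in both pieces of each spleen on linear axes that start at 0, piece 1 to the left and piece 2 to the right of each animal. The pieces of a spleen lie close together in most panels, but control pieces were called different for Ctsh, Cd63, Cd68 and Ctss. The SB animals (colours) lie far apart for Psap, Ctss, Grn and Cd68. For Tfeb they lie nearer each other, with a span of 1.905-fold, and were still called unequal.

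Over 6 lists of other lysosomal genes, 108 genes were tested, and 9 (8.33%) were called higher and 5 (4.63%) lower, where 8.59% and 9.75% of all genes were. Of 31 other hydrolases, 1 rose (3.23%) and 3 fell (9.68%). Ppt2, a thioesterase, rose by 1.00 (log2, SE 0.25, edgeR adjusted p = 0.0409), at 30.9, 39.0 and 22.4 CPM against 15.4 ± 0.463 CPM (SD, n = 3). Its call was lost with no filter, piece 2 only, voom, without SB animal 1 and without each control, with adjusted p up to 0.167. Ctsw, a cathepsin of cytotoxic lymphocytes, was at -2.61 (edgeR adjusted p = 0.0204), Ctso at -1.52 (adjusted p = 0.0286) and Galns, which degrades keratan sulfate, at -0.82 (adjusted p = 0.0389). These 3 calls were lost without any 1 control, with adjusted p up to 0.0868, 0.11 and 0.162. That of Ctso was also lost without SB animal 1 (edgeR adjusted p = 0.0562), and that of Galns with no filter (edgeR adjusted p = 0.0629). The SB animals were unequal in 27 of these 31 genes (87.1%, against 70.8% of all genes), and SB animal 2 was highest in 27 (87.1%, against 36%).

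Of 19 other membrane proteins, Tpcn1, a channel of endosomes and lysosomes, rose by 1.47 (edgeR adjusted p = 0.0258), and Lamp3, a marker of mature dendritic cells, was at -4.86 (adjusted p = 0.00363) from a low level of 2.22 ± 0.122 CPM in controls. Of the 18 subunits of the V-ATPase, the proton pump that acidifies the lysosome, edgeR called 0, with 1 at an unadjusted p under 0.05, and DESeq2 called 1. Their SB animals were unequal in 15 of 18 (83.3%, against 70.8% of all genes), with SB animal 2 highest in 15 (83.3%, against 36%). Of 15 genes that sort proteins to lysosomes, Sort1, sortilin, rose by 1.61 (edgeR adjusted p = 0.0174) and Vps35, of the retromer, by 0.73 (adjusted p = 0.0372), while Gga2, an adaptor for mannose 6-phosphate receptors, was at -1.996 (adjusted p = 0.00419). The calls of Tpcn1 and Sort1 were lost without any 1 control, with adjusted p up to 0.125 and 0.0957. That of Vps35 was lost in 8 of 15 alternatives, with library totals, no filter, piece 2 only, voom, without SB animal 3 and without each control, with adjusted p of 0.053 to 0.173. Gga2 and Lamp3 were called in all 15. The SB animals were unequal in 17 of the 19 membrane proteins (89.5%) and in 10 of the 15 sorting genes (66.7%), against 70.8% of all genes. SB animal 2 was highest in 84.2% of the membrane proteins and 46.7% of the sorting genes, against 36% of all genes.

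Of 20 genes for the relatives of Tfeb and the control of mTORC1 at the lysosome, 3 rose and 0 fell, with 0 lower at an unadjusted p under 0.05. Fnip2, a partner of folliculin, rose by 2.24 (edgeR adjusted p = 0.00821), at 40.7, 67.6 and 42.3 CPM against 10.6 ± 2.31 CPM. Tfec, a relative of Tfeb found in macrophages, rose by 1.88 (edgeR adjusted p = 0.0302), at 29.1, 27.1 and 11.3 CPM against 6.13 ± 0.976 CPM. Rheb, the GTPase that activates mTORC1, rose by 0.61 (edgeR adjusted p = 0.0421). The call of Rheb was lost in 8 of 15 alternatives, with library totals, no filter, piece 1 only, voom, without SB animal 1 and without each control, with adjusted p of 0.0506 to 0.187. Tfec lost its call without any 1 control (adjusted p up to 0.131), and Fnip2 in 1 alternative (adjusted p = 0.0562). Tfe3 measured 60.2, 156 and 72.3 CPM against 64.8 ± 2.01 CPM, and Mitf 2.42, 27.1 and 2.69 CPM against 6.70 ± 0.676 CPM. Neither was called (edgeR adjusted p = 0.317 and 0.652), and both were highest in SB animal 2, as most members were. Per gene, Tfeb thus stood lower in all SB animals while Tfec stood higher in all of them.

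Among 10 inhibitors of cathepsins, 5 were tested and 2 were called higher. Stfa1, a stefin of the neutrophil lineage, had 18 to 35 counts in each SB library and 0 in each control library (edgeR adjusted p = 0.00985). Stfa2l1 measured 0.568, 4.21 and 1.80 CPM against 0.217 ± 0.0879 CPM (edgeR adjusted p = 0.0444), a call lost in 6 of 13 alternatives with adjusted p up to 0.167. Stefins lie in a cluster of near-identical copies, so their reads may be shared between genes.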

How the data were processed

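Per the labels' protocols, unstranded libraries were made from poly-A RNA of 12 spleen pieces. The deposited table holds whole-number read counts per Ensembl gene, not normalised by the authors as far as the values show. STAR 2.5.3a, limma and the builds mm10 and GRCm38 are named in the submitters' processing notes with no role. How reads were counted, and on which annotation release, is not given in the sources used here. Of 32121 identifiers, 32026 were matched to symbols. Libraries held at least 14320833 counts.

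For the genotype, counts of both pieces were summed per animal and 3 SB animals were compared with 3 controls in edgeR 4.0.16 under R 4.3.3, with TMM, filterByExpr and a robust quasi-likelihood fit over all genes. Pieces were compared over 12 libraries with the animal as a block, since both pieces of a spleen come from the same animal. A fit with 1 coefficient per animal compared animals within a genotype. All tests were two-sided at an adjusted p of 0.05. Log2 ratios to the control mean use CPM with a pseudocount of 1. SEs were derived from the F statistic. RPKM was computed from union exon lengths, and promoter motifs were searched in RefSeq windows. The scripts were tested on simulated data.

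Alternatives were DESeq2 1.42.0, limma 3.58.1 (voom with the animal as a random effect), other scalings, no filter, single pieces and each animal left out. The legacy quasi-likelihood fit was added after seeing the data. The 31 members were named whatever their p. Of other lists up to 4 called genes per direction with the smallest adjusted p were named, with Tfe3 and Mitf, and the first 3 markers of a cell type list. Mrc1, Kit and Mmp9 were named outside this rule. Another 2 hydrolase genes are not reported here. Members and lists were chosen with earlier results of these data known.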

Additional observations from a re-analysis of the deposited data

Results flagged for a closer look

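In 2 lysosomal membrane proteins the change from piece 1 to piece 2 differed between the genotypes by a test of the difference itself (edgeR, animal as a block). For Cd63 the piece change was 0.20 (log2, SE 0.09) in the SB animals and -0.40 (SE 0.09) in the controls, a difference of 0.60 (SE 0.13, edgeR adjusted p = 0.0477). It was above the threshold without SB animal 3 (edgeR adjusted p = 0.178) and without control animal 1, 2 or 3 (0.0713, 0.243 and 0.184). For Cd68 the piece change was -0.01 (SE 0.08) in the SB animals and 0.52 (SE 0.08) in the controls, a difference of -0.53 (SE 0.11, edgeR adjusted p = 0.0475). It was above the threshold without SB animal 2 or 3 (edgeR adjusted p = 0.0643 and 0.174) and without control animal 2 or 3 (0.248 and 0.206). Over all alternatives the adjusted p ran from 0.0336 to 0.243 for Cd63 and from 0.0122 to 0.248 for Cd68. The labels give no position in the spleen for a piece, and no cause was tested.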

How the results depend on the processing

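Under 15 alternatives for each of 31 members, 416 changes kept direction and side of the threshold, 29 reversed, 17 gained a call and 3, all of Gla, lost it. With 4 of the reversed changes, those of Ctsc, Ctss, Ctsa and Psap without SB animal 2, calls gained came to 21. DESeq2 gave no adjusted p for Ctsh, Ctss and Grn, which are counted there by direction. Tfeb was called lower in all of them. The members called higher, 1 in the main comparison, numbered 4 with DESeq2 and with voom and 2 with library totals alone and with piece 1 only. Those called lower, also 1, numbered 2 with voom. Leaving out 1 animal gave 0 to 4 higher and 1 to 7 lower, and 554 to 6409 genes in all, against 1489 higher and 1689 lower with all animals and 5631 in all with DESeq2. The 0 came without control animal 1, 2 or 3 and the 554 without control animal 2, which leaves 2 controls, and the 7 and the 6409 came without SB animal 2. Of called genes 46.9% were higher in the main comparison, and 29.5%, 15.5% and 22.3% without control animal 1, 2 or 3.

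Reversed changes were those of genes with SB animals on both sides of the controls. With voom, Ctsc was at -0.14, Ctsk at -0.15, Ctss at -1.43, Psap at -0.95 and Mitf at -0.34. With library totals alone, Ctss was at -0.067 and Psap at -0.14. With piece 1 only, Ctss was at -0.023 and Psap at -0.041. Psap was at -0.0078 with scaling without globin and immunoglobulin genes and at -0.022 with no filter. With piece 2 only, Ctsz was at 0.048. The cause was not tested. Leaving out 1 animal moved Ctsb from -0.35 to 1.67, Ctsc from -1.09 to 1.02, Ctsk from -0.71 to 0.58, Ctss from -2.76 to 0.65, Ctsz from -1.13 to 0.30, Lgmn from -0.50 to 2.09, Ctsa from -0.50 to 0.97, Hexa from -0.46 to 0.75, Naglu from -0.32 to 0.10, Lipa from -0.093 to 0.69, Smpd1 from -0.11 to 0.55, Asah1 from -0.28 to 1.63, Psap from -1.84 to 0.52, Grn from -0.21 to 2.14, Scarb2 from -0.35 to 0.42 and Mitf from -1.39 to 1.15.

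Between pieces, 0 members were called with the animal as the replicate block and 0 to 1 with an animal left out. With no filter 1 was called, of 481 genes in all, and with DESeq2 4, of 1213 genes in all. With no replicate block, 0 members and 0 genes in all were called, against 474 genes with it. Over genes tested in both, no alternative moved the median change by over 0.1 (log2), and the widest move was -0.08, with voom.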
